A study of Mus musculus with 7 samples.

Results

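Transcripts of 10 genes were followed that build the coat of the lipid droplet or control the breakdown of the triglyceride inside it, namely Plin1, Plin2, Plin4, Cidec, Pnpla2, Lipe, Mgll, Abhd5, Adrb3 and Plaat3. They were chosen by name, with earlier results of these data known. All 10 were among the 56691 genes counted and the 12888 genes with enough counts to be tested. The tissue was healthy-looking skin of 3 Tuft1 knockout mice (mice 2, 3 and 4), set against healthy skin of 4 wild-type mice (mice 5, 6, 7 and 8), with 1 library per mouse. Tuft1 encodes tuftelin 1, described in the study's title as associated with desmosomes. The labels used here give the genotype only as KO or WT. The deleted part of Tuft1, the cells in which it was deleted, and the strain, age, sex and body site of the mice are not given in the sources used here. The assay counts reads near the 3' ends of polyadenylated transcripts, so a count stands for a transcript whatever its length, and levels are given as CPM, the usual counts-per-library scaling with TMM factors for the tested genes.

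A fat cell stores triglyceride in a droplet whose surface is covered by perilipins and by CIDE proteins, which limit the access of lipases. Adrenergic signals raise cyclic AMP, and protein kinase A then phosphorylates perilipin 1, which releases the co-activator ABHD5 to the triglyceride lipase ATGL (Pnpla2). Hormone-sensitive lipase (Lipe) and monoglyceride lipase (Mgll) complete the hydrolysis. In skin these proteins serve the dermal and subcutaneous fat, but droplets are also made in sebocytes, muscle fibres and macrophages.

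Between 7009237 and 9256459 counts were obtained per library. Tuft1 averaged 22.1 ± 6.23 CPM in the knockout mice, against 94.9 ± 26.6 CPM in the wild-type mice (SD, n = 3 and 4), and its log2 fold change was -2.10 (SE 0.39; adjusted p = 0.172 with edgeR). Keratinocyte markers were found in all libraries, with 11 of 12 listed genes tested and summed levels of 17706 to 18953 CPM in the knockout mice, against 18989 to 22726 CPM in the wild-type mice. Knockout mouse 2 stood apart in hair genes: 45 of 58 keratin-associated protein genes were detected in it, while any other library held 2 to 4 of them. Without this mouse, edgeR's log2 fold change was -1.87 for Plin1, -1.85 for Cidec, -1.50 for Plaat3 and -1.20 for Lipe. It was -0.94 for Pnpla2 and Adrb3, -0.85 for Plin4, -0.40 for Abhd5, -0.068 for Plin2 and 0.74 for Mgll. Of the 10 genes, 0 were called in this fit. Without knockout mouse 4 instead, it was -1.36 for Plin1, -1.11 for Cidec, -1.01 for Plaat3, -0.95 for Lipe and -1.11 for Pnpla2.

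Among the 10 genes, perilipin 1, CIDEC, the phospholipase PLAAT3, both upper lipases and the beta-3 adrenergic receptor had mean levels in knockout skin of 34.7% to 51.6% of the wild-type level, while Mgll and Plin2 had higher means in knockout skin. None of the 10 was called at an adjusted p below 0.05 by edgeR's quasi-likelihood test, in which 3 of 12888 genes were called (0.0233%). At an unadjusted p below 0.05, 5 of the 10 were lower in knockout skin, where 2.59% of all tested genes were, and 1 of the 10 was higher, where 1.71% of all tested genes were. A log2 fold change below 0 was found for 8 of the 10 and for 50.5% of all tested genes. Its median was -0.97 over the 10 genes and -0.0098 over all tested genes. In 4 of the 10, Plin1, Pnpla2, Lipe and Plaat3, each knockout mouse lay below each wild-type mouse, which held for 3.45% of all tested genes and for 5.54% of those whose mean level reached 50 CPM. In 0 of the 10 did each knockout mouse lie above each wild-type mouse (3.44% of all tested genes). Because the 10 were chosen with earlier results of these data known, these counts and shares are descriptions and not a test. In bulk skin, fewer fat cells and less RNA of a gene per fat cell cannot be told apart.

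**Figure D1:**
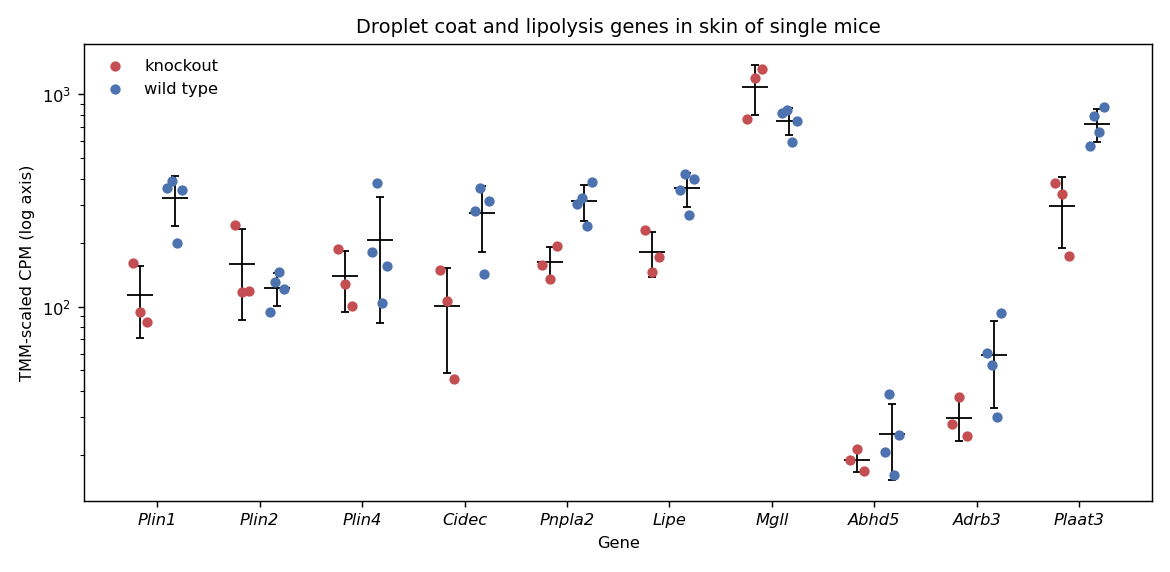
TMM-scaled CPM (log axis) of the 10 genes in each mouse, knockout left and wild type right of each position, with bars at the mean ± SD (n = 3 and 4). The knockout points of Plin1, Pnpla2, Lipe and Plaat3 lie below all wild-type points, and those of Mgll reach 1312 CPM.

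The droplet coat was described first. Plin1 (ENSMUSG00000030546.15, minus strand of chromosome 7, 79369966 to 79382651, mm39) encodes perilipin 1, the main coat protein of fat cell droplets and the gate of hormone-stimulated lipolysis. Its transcripts reached 160.5, 93.8 and 84.3 CPM in knockout mice 2, 3 and 4, against 360.2, 388, 198 and 356 CPM in wild-type mice 5, 6, 7 and 8. Between the groups there was no overlap, and wild-type mouse 7 was nearest to the knockout mice. The log2 fold change was -1.53 (SE 0.31) and the adjusted p = 0.254 with edgeR, which placed the gene at rank 14 of 12888. With the 35 ways of splitting the mice, the exact permutation test (two-sided) gave p = 0.0571, where the smallest possible value is 0.0286.

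Plin2 (ENSMUSG00000028494.13, minus strand of chromosome 4, 86566623 to 86588297, mm39) encodes the perilipin found on droplets of most cell types, sebocytes and foamy macrophages among them. Its level was 243, 116 and 118 CPM in knockout mice 2, 3 and 4, against 94.1, 130.5, 146 and 120.3 CPM in wild-type mice 5, 6, 7 and 8. Knockout mouse 2 lay above the wild-type range, and the other knockout mice lay inside it. Its log2 fold change was 0.37 (SE 0.30, edgeR adjusted p = 0.9997), and -0.068 without knockout mouse 2. The exact permutation p was 0.514. Macrophage markers, 12 of 12 tested, summed to 1787, 774 and 874 CPM in knockout mice 2, 3 and 4, against 572 to 1115 CPM in wild-type mice. All 12 had a log2 fold change above 0, but without knockout mouse 2 only 6 did, with 6 below 0. What part macrophage content had in the Plin2 level of mouse 2 was not tested.

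Plin4 (ENSMUSG00000002831.15, minus strand of chromosome 17, 56407591 to 56416803, mm39) encodes a perilipin of nascent droplets in fat and muscle. It was at 187, 128 and 100.2 CPM in knockout mice 2, 3 and 4, against 181, 381, 104 and 155 CPM in wild-type mice 5, 6, 7 and 8. Knockout mice 2 and 3 lay inside the wild-type range and knockout mouse 4 just below it. Wild-type mouse 6 had by far the highest value of the 7 mice. Its log2 fold change was -0.57 (SE 0.39, edgeR adjusted p = 0.9997, exact permutation p = 0.486), and -0.089 without wild-type mouse 6. Exons of Plin4 overlap those of Hdgfl2 on the other strand, which held 1696 counts beside the 10516 of Plin4, so reads of the pair cannot be told apart if strand was not used in counting.

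Cidec (ENSMUSG00000030278.12, minus strand of chromosome 6, 113401595 to 113412721, mm39), whose protein fuses droplets into the single large one of white fat cells, was at 149, 107 and 45.5 CPM in knockout mice 2, 3 and 4. In wild-type mice 5, 6, 7 and 8 it was at 283, 362, 142 and 313 CPM. Knockout mouse 2 lay just above wild-type mouse 7, and this was the only crossing between the groups. For Cidec the log2 fold change was -1.45 (SE 0.40, edgeR adjusted p = 0.667, exact permutation p = 0.0857).

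The make-up of the perilipin transcripts differed as well. Summed over Plin1 to Plin5, perilipin transcripts reached 679, 401 and 428 CPM in knockout mice 2, 3 and 4, and 692, 983, 528 and 719 CPM in wild-type mice 5, 6, 7 and 8. Plin1 made up 23.6%, 23.4% and 19.7% of this sum in knockout mice 2, 3 and 4, against 52.0%, 39.5%, 37.6% and 49.4% in wild-type mice 5, 6, 7 and 8. The share of Plin2 was 27.6% to 35.7% in knockout and 13.3% to 27.7% in wild-type skin. Plin1 transcripts were 0.66 to 0.80 times as many as Plin2 transcripts in knockout mice and 1.36 to 3.83 times as many in wild-type mice, with no overlap. These shares and ratios are descriptions of the 7 libraries without a test. Plin3, the perilipin of most tissues, averaged 83.3 ± 36.6 CPM in knockout mice, against 71.2 ± 14.3 CPM in wild-type mice (SD, n = 3 and 4), and Plin5, the perilipin of oxidative tissues, had 0 counts in 4 of the 7 libraries (both chosen after their values were seen).

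**Figure D2:**
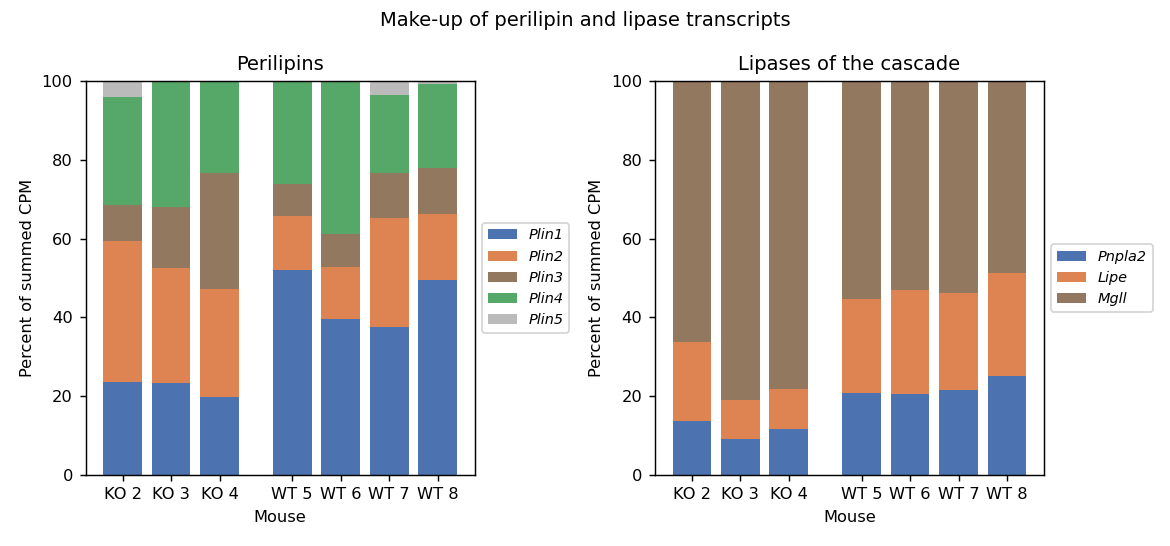
Percent of summed TMM-scaled CPM of the perilipin genes (left) and of the cascade lipases (right) in each mouse, knockout (KO) before wild type (WT). The Plin1 share is 19.7% to 23.6% in knockout and 37.6% to 52.0% in wild-type mice, and the Mgll share is 66.3% to 81.0% in knockout and 48.8% to 55.3% in wild-type mice. Each share also depends on the levels of the other genes in its sum.

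Sequences before the transcription starts were read for AGGTCA, the core motif of nuclear receptors. The fat cell regulator PPAR gamma, which is known to bind near several of these genes, recognises DR1, a direct repeat of 2 such cores with 1 base between them. RefSeq promoters (GRCm38.p6) were at hand for 9 of the 10 genes in 13 windows, and the 250 bases before each start were searched on both strands. The windows of Plin1, which has the lowest log2 fold change, and of Plin2 and Abhd5, in which the core motif was found, are shown with that motif in capitals. The motif stands on the reverse strand in both, so it reads TGACCT.
Plin1 (chr7:79732777-79733026, minus strand): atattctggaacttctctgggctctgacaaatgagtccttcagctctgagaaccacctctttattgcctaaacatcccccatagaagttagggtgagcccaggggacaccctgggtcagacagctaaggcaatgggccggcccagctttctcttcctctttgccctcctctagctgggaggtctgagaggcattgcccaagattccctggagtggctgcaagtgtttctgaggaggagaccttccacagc
Plin2 (chr4:86670060-86670309, minus strand): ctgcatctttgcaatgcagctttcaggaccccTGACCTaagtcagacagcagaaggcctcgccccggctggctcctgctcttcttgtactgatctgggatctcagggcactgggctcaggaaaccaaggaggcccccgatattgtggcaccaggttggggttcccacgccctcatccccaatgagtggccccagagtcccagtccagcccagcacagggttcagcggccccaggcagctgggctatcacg
Abhd5 (chr9:122351366-122351615, plus strand): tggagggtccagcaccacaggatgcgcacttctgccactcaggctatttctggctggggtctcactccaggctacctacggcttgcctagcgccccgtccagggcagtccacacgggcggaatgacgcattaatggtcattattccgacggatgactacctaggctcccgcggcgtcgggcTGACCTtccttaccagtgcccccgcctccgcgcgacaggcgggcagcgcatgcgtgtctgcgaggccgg
The core motif was in 2 of the 13 windows (15.4%), against 14% of all 32851 promoter windows of the same length. The full DR1 was in 0 of the 13 windows and in 0.0335% of all windows.

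The hydrolysis cascade was described next, in the order in which its enzymes act. Pnpla2 (ENSMUSG00000025509.16, plus strand of chromosome 7, 141035111 to 141040656, mm39) encodes ATGL, which removes the first fatty acid from triglyceride. It was at 158, 135 and 193 CPM in knockout mice 2, 3 and 4, against 305, 324, 239 and 385 CPM in wild-type mice 5, 6, 7 and 8. All knockout mice lay below all wild-type mice, and wild-type mouse 7 was again the lowest of its group. Its log2 fold change was -0.95 (SE 0.24, edgeR adjusted p = 0.519, exact permutation p = 0.0286, the smallest possible).

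Abhd5 (ENSMUSG00000032540.17, plus strand of chromosome 9, 122180673 to 122210589, mm39) encodes the co-activator of ATGL, also called CGI-58, whose loss in humans causes a lipid storage disease with ichthyosis. It was the least abundant of the 10 genes, at 18.9, 21.3 and 16.7 CPM in knockout mice 2, 3 and 4, against 20.6, 38.8, 16.1 and 24.8 CPM in wild-type mice 5, 6, 7 and 8. Each knockout value lay inside the wild-type range. With 127 to 345 counts per library, the log2 fold change of -0.40 had an SE of 0.68 (edgeR adjusted p = 0.9997, exact permutation p = 0.457). ATGL transcripts were 6.33 to 11.5 times as many as those of its co-activator in knockout mice and 8.35 to 15.5 times as many in wild-type mice.

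Lipe (ENSMUSG00000003123.16, minus strand of chromosome 7, 25078952 to 25098135, mm39) encodes hormone-sensitive lipase, which acts on diglyceride. Its levels were 229, 145 and 170.5 CPM in knockout mice 2, 3 and 4, against 354, 419, 270.03 and 398 CPM in wild-type mice 5, 6, 7 and 8. Again the groups did not overlap, with the same wild-type mouse 7 at the lower end. For Lipe the log2 fold change was -0.99 (SE 0.25, edgeR adjusted p = 0.503, exact permutation p = 0.0286). Lipe and Pnpla2 transcripts were about equal in number in both groups: the ratio of Lipe to Pnpla2 was 1.14 ± 0.29 in knockout and 1.15 ± 0.11 in wild-type skin (SD, n = 3 and 4).

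Mgll (ENSMUSG00000033174.18, plus strand of chromosome 6, 88701394 to 88805342, mm39) encodes monoglyceride lipase, which frees the last fatty acid and also degrades the endocannabinoid 2-arachidonoylglycerol in many cell types. It was at 761, 1193 and 1312 CPM in knockout mice 2, 3 and 4, against 813, 843, 597 and 746 CPM in wild-type mice 5, 6, 7 and 8. Knockout mice 3 and 4 lay above all wild-type mice, and knockout mouse 2 lay inside their range. For Mgll the log2 fold change was 0.54 (SE 0.23, unadjusted p = 0.0334 and adjusted p = 0.9997 with edgeR, exact permutation p = 0.114). Mgll transcripts were 3.33, 8.23 and 7.69 times as many as Lipe transcripts in knockout mice 2, 3 and 4, and 2.30, 2.01, 2.21 and 1.87 times as many in wild-type mice 5, 6, 7 and 8. The summed level of the cascade lipases was 1431 ± 266 CPM in knockout mice, against 1423 ± 216 CPM in wild-type mice (SD, n = 3 and 4). The share of Mgll in it was 75.2% ± 7.81 in knockout and 52.8% ± 2.81 in wild-type mice. Such a share or ratio also rises where Pnpla2 and Lipe are lower, and the CPM of Mgll itself overlapped between the groups. Neither was tested.

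Sebaceous glands and muscle are other tissues of the skin that hold droplets. Sebaceous gland markers, 15 of 16 tested and 12 of these with a log2 fold change above 0, summed to 1429, 2151 and 2011 CPM in knockout mice 2, 3 and 4, and to 930 to 1277 CPM in wild-type mice. With edgeR 0 of them were called (6 were higher and 1 lower at an unadjusted p below 0.05). Fa2h and Krt79 were called higher with DESeq2 and with edgeR on genes with a mean of 50 CPM or more. Limma-voom called Fa2h higher, and edgeR without a filter on low counts called Fa2h, Krt79 and Elovl3 higher. Skeletal muscle markers, 17 of 20 tested and 16 of these above 0 (13 without knockout mouse 2), summed to 25226, 34959 and 35655 CPM in knockout mice 2, 3 and 4, and to 22145 to 31396 CPM in wild-type mice. The part of either tissue in the Mgll level was not tested.

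Adrb3 (ENSMUSG00000031489.16, minus strand of chromosome 8, 27715804 to 27740644, mm39) encodes the beta-3 adrenergic receptor, through which noradrenaline starts lipolysis in rodent fat. It was at 27.8, 37.4 and 24.5 CPM in knockout mice 2, 3 and 4, against 60.4, 53.1, 30.2 and 92.9 CPM in wild-type mice 5, 6, 7 and 8. Wild-type mouse 7 lay inside the knockout range, and the other wild-type mice lay above it. For Adrb3 the log2 fold change was -0.98 (SE 0.46, edgeR adjusted p = 0.9997, exact permutation p = 0.0857).

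Plaat3 (ENSMUSG00000060675.14, plus strand of chromosome 19, 7534824 to 7565910, mm39), known as AdPLA, encodes a phospholipase abundant in fat cells that in mice restrains lipolysis by way of prostaglandin E2. It was at 383, 339 and 174 CPM in knockout mice 2, 3 and 4, against 573, 786, 666 and 870 CPM in wild-type mice 5, 6, 7 and 8. Again there was no overlap, and wild-type mouse 7 was not the lowest of its group for this gene. For Plaat3 the log2 fold change was -1.28 (SE 0.28, edgeR adjusted p = 0.329, exact permutation p = 0.0286).

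**Figure D3:**
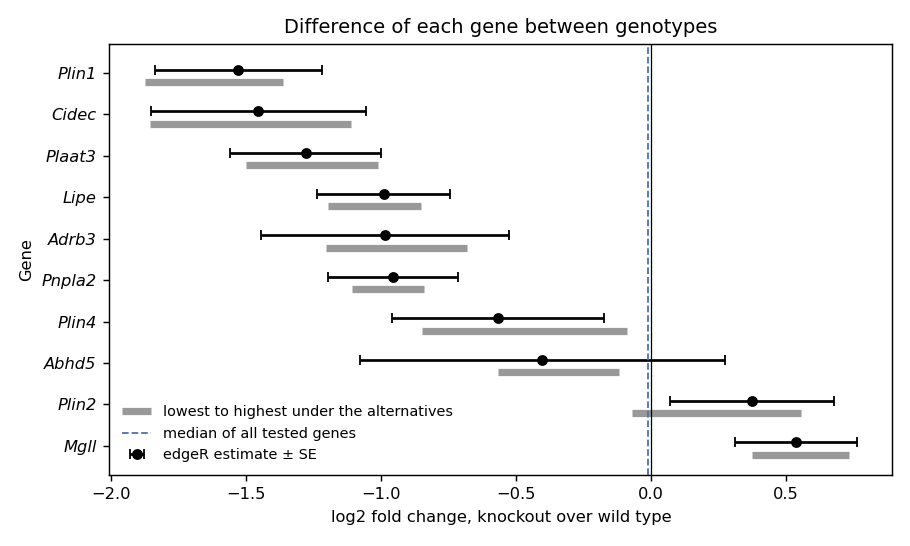
Log2 fold change of each gene, knockout over wild type, as the edgeR estimate ± SE (points) with the lowest and highest value under the alternative settings (grey bars) and the median of all tested genes (dashed line). The estimates run from -1.53 for Plin1 to 0.54 for Mgll, and the grey bar of Plin2 crosses 0.

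How many of these genes were called depended on the test and on the filter. DESeq2's Wald test called 5 as lower, Plin1, Plaat3, Lipe, Pnpla2 and Cidec, where 0.613% of all tested genes were called lower. Without a filter on low counts edgeR called Plin1, Plaat3 and Cidec (0.22% of all genes lower), and among genes whose mean level reached 50 CPM it called Plin1 and Plaat3 (0.43%), as did limma-voom (0.116%). With Benjamini-Hochberg adjustment, the adjusted p of Plin1 ran from 2.87e-05 with DESeq2 to 1.00 with 1 mouse left out.

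The order of levels also differed between the groups. In knockout skin Mgll stood first at 1088 ± 290 CPM, above Plaat3 with no overlap, and was followed by 7 genes at means between 100.3 and 299 CPM of which each overlapped its neighbour. In wild-type skin Mgll at 749.6 ± 110 CPM and Plaat3 at 724 ± 131 CPM overlapped each other and lay above the other 8 genes. Lipe, Plin1, Pnpla2, Cidec, Plin4 and Plin2 followed there, each overlapping the next, and Adrb3 and Abhd5 were the lowest in both groups. Within groups, wild-type mouse 7 had the lowest value for 8 of the 10 genes and wild-type mouse 6 the highest for 6. Knockout mouse 2 had the highest value of its group for 6 genes and knockout mouse 4 the lowest for 6.

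Fat cell markers outside the 10 genes had a lower summed level in each knockout mouse than in each wild-type mouse. Of 25 listed genes 23 were tested, and 21 had a log2 fold change below 0, with a median of -1.08 against -0.0098 for all tested genes. With edgeR 0 were called (15 were lower at an unadjusted p below 0.05), while 8 were called lower with DESeq2, 8 with limma-voom, 8 with edgeR without a filter on low counts and 6 with edgeR on genes with a mean of 50 CPM or more. They summed to 9274 to 12004 CPM in knockout mice, against 17555 to 25975 CPM in wild-type mice. Adipoq, the gene of the fat cell hormone adiponectin, was at 360.5, 284 and 257 CPM in knockout mice 2, 3 and 4, against 866, 1042, 573 and 851 CPM in wild-type mice 5, 6, 7 and 8 (log2 fold change -1.47, SE 0.24, edgeR adjusted p = 0.0934). Lpl, the gene of lipoprotein lipase, had a log2 fold change of -1.42 (SE 0.24), Dgat2, which makes triglyceride, of -1.49 (SE 0.24), and Cd36, a fatty acid transporter, of -1.40 (SE 0.23). Of the brown fat markers, Ucp1, the defining one, had 0 counts in all 7 libraries, which allows a level of up to 0.323 to 0.395 CPM by library (3 counts, counting error only).

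Set against the mean log2 CPM of these 23 markers in the same library, most of the 10 genes overlapped between the groups. The log2 ratio of Plin1 to the markers was -0.032 ± 0.60 in knockout and 0.40 ± 0.27 in wild-type skin (SD, n = 3 and 4). For Pnpla2 it was 0.53 ± 0.73 in knockout and 0.37 ± 0.13 in wild-type skin, and for Lipe 0.69 ± 0.65 in knockout and 0.57 ± 0.081 in wild-type skin. That of Plaat3 was 1.35 ± 0.34 in knockout and 1.58 ± 0.19 in wild-type skin. Only the ratios of Mgll and Abhd5 lay higher in every knockout mouse than in every wild-type mouse. The share of all tested genes for which this held was not computed. The marker mean itself was lower in each knockout mouse, at 6.30 to 7.24 against 7.56 to 8.15 in wild-type mice. A gene with a steady level therefore rises in this ratio, and the CPM of Abhd5, of Mgll and of Plin2 overlapped between the groups. Knockout minus wild type, the marker mean differed by -1.11 and the log2 ratio of Mgll by 1.62. The ratio of Mgll was 2.73, 2.98 and 4.06 in knockout mice 2, 3 and 4, against 1.89, 1.57, 1.66 and 1.43 in wild-type mice 5, 6, 7 and 8. That of Abhd5 was -2.54 ± 0.30 in knockout and -3.31 ± 0.31 in wild-type skin, and its groups overlapped when only the 19 markers whose mean level reached 50 CPM were used, a choice made after seeing the data. Plin2 then lay higher without overlap, with a mean log2 ratio of -0.27 ± 0.72 in knockout and -1.59 ± 0.39 in wild-type skin. Without knockout mouse 2, Cidec and Plaat3 lay lower without overlap, but this rests on knockout mice 3 and 4 alone. Groups separate more easily with fewer mice, and the share of all tested genes was not computed there either. With all 7 mice the ratios of both genes overlapped. These ratios are descriptions without a test.

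**Figure D4:**
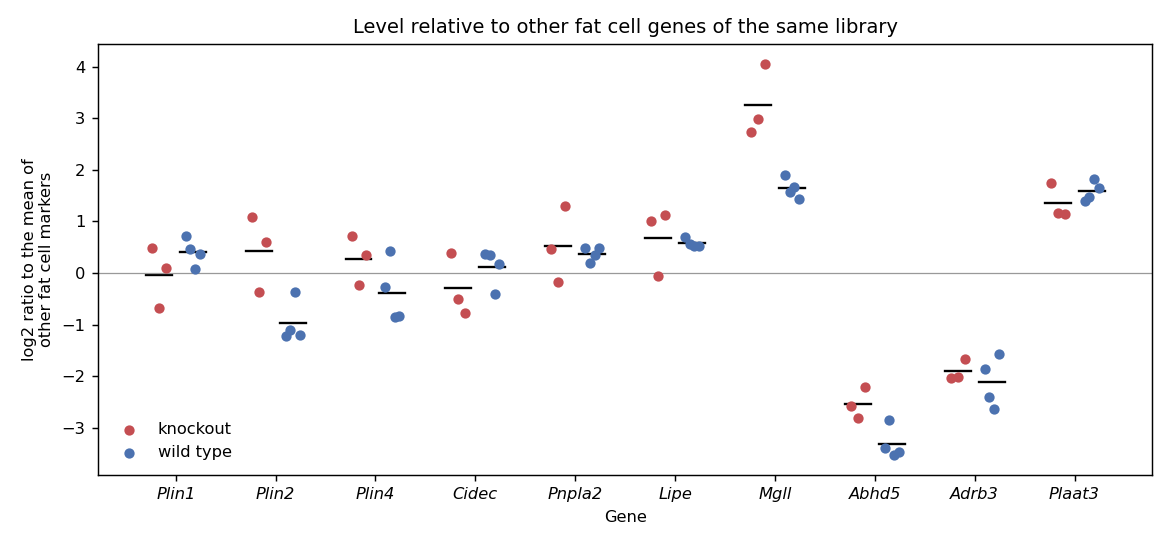
Log2 ratio of each gene to the mean log2 CPM of 23 other fat cell markers in the same library, knockout left and wild type right, with bars at group means. The groups of Mgll and Abhd5 do not overlap, and those of the other 8 genes do. The marker mean is itself lower in each knockout mouse than in each wild-type mouse.

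Of the 5 genes whose pattern over the libraries was most like that of Plin1, 4 were on the list of fat cell markers. The measure was the root mean square difference between log2 CPM values centred on each gene's mean over the 7 libraries, among 3477 genes whose mean level reached 50 CPM. It includes the difference between knockout and wild type, so the order is not separate from the fold changes. The 5 genes nearest to Plin1 had log2 fold changes from -1.52 to -1.08, while those of Plin2 and Mgll were above 0. Nearest to Plin1 were Adipoq (0.165), Dgat2 (0.277), the fatty acid carrier gene Fabp4 (0.279), the extracellular superoxide dismutase gene Sod3 (0.304) and the adipsin gene Cfd (0.305). In that order Cidec would stand at place 9 with 0.316, Lipe at 12, Plaat3 at 17, Pnpla2 at 40 and Adrb3 at 76. Plin4 would stand at place 237, Abhd5 at 374, Plin2 at 2311 and Mgll at 2938. Nearest to Plin2 were the surface protein gene Ly6a (0.0964), the histone methyltransferase gene Kmt2d (0.150), Mob1a (0.176), the cargo receptor gene Lman1 (0.176) and the macrophage growth factor receptor gene Csf1r (0.177). Plin2 was highest in knockout mouse 2, at 243 CPM against 94.1 to 146 CPM in the other mice. Csf1r was at 215 CPM in that mouse, against 89.4 to 156 CPM in the others. How far the likeness rests on this 1 mouse was not tested.

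Other proteins of the droplet surface and of caveolae, the membrane pits that are dense in fat cells, gave a mixed picture. Of 24 listed genes 20 were tested, and 12 had a log2 fold change below 0 and 8 above. Their median was -0.24, and lay between -0.38 without knockout mouse 2 and -0.10 without wild-type mouse 6 when 1 mouse was left out. With edgeR 0 were called (5 were lower and 1 higher at an unadjusted p below 0.05), as with limma-voom, while DESeq2 called Cav1 and Cav2 lower. Cav2 was at 103, 145 and 95.8 CPM in knockout mice 2, 3 and 4, against 219, 246, 203 and 224 CPM in wild-type mice 5, 6, 7 and 8 (log2 fold change -0.96, SE 0.24, edgeR adjusted p = 0.511). Cav1, its partner in the caveolar coat, had a log2 fold change of -0.87 (SE 0.24). Cidea, a CIDE protein of sebocytes and brown fat, was at 47.0, 170.04 and 142 CPM in knockout mice 2, 3 and 4, against 51.0, 33.4, 41.0 and 71.0 CPM in wild-type mice 5, 6, 7 and 8 (log2 fold change 1.28, SE 0.42, edgeR adjusted p = 0.918). Knockout mice 3 and 4 lay above the wild-type range and knockout mouse 2 inside it. G0s2, the inhibitor of ATGL, averaged 41.3 ± 21.6 CPM in knockout mice, against 87.6 ± 30.2 CPM in wild-type mice (SD, n = 3 and 4, chosen after its values were seen).

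Genes that start or restrain the lipolytic signal had a median log2 fold change of -0.28. It lay between -0.46 without knockout mouse 4 and -0.14 without knockout mouse 3 when 1 mouse was left out. The list mixes genes of both kinds, so its median gives no direction of the signal. Of 35 listed genes 30 were tested, and 21 had a log2 fold change below 0 and 9 above. With edgeR 0 were called (1 was lower at an unadjusted p below 0.05), as with limma-voom, while Prkar2b was called lower with DESeq2 and with edgeR without a filter on low counts. Prkar2b, the regulatory subunit of protein kinase A in fat cells, was at 90.6, 27.0 and 39.1 CPM in knockout mice 2, 3 and 4, against 151, 169.8, 124 and 143 CPM in wild-type mice 5, 6, 7 and 8. There was no overlap between the groups (log2 fold change -1.49, SE 0.39, edgeR adjusted p = 0.519). Aqp7, the channel through which fat cells release glycerol, averaged 4.08 ± 3.07 CPM in knockout mice, against 18.6 ± 8.61 CPM in wild-type mice (SD, n = 3 and 4), where the log2 fold change was -2.19 (SE 1.21), and Irs2, an adaptor of the insulin receptor, had a log2 fold change of -1.48 (SE 0.77).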

How the data were processed

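Per the labels' protocols, RNA from powdered frozen skin was extracted with TRIzol and made into QuantSeq 3' libraries. One deposited table gives raw read counts for each gene, produced by the authors. Per the submitters' processing notes, the build was mm39 and the tools included featureCounts, edgeR 3.36.0, Subread 2.0.3, GATK 4.2.4.0 and STAR, without their roles. The sources used here do not state whether strand was used or duplicates were removed. The authors' other table, of filtered log2 CPM, served only as a check: all 90678 values were recovered from the counts within 1e-06.

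The counts of 3 knockout and 4 wild-type libraries were analysed in edgeR 4.0.16 (R 4.3.3). edgeR's expression filter (minimum count 10) left 12888 of 19128 genes with any count. TMM factors and the quasi-likelihood F test were used, with Benjamini-Hochberg adjustment over all tested genes and calls at 0.05. SE was derived from the F statistic. The common biological coefficient of variation was 108%. Log2 CPM used a prior count of 2. Replicates are the separate mice of the labels, and single values were compared by the exact two-sided permutation test of log2 CPM. Alternatives were DESeq2 1.42.0, size factors by the method of DESeq2, TMM factors from genes outside all lists, limma-voom (limma 3.58.1), no filter, a filter at a mean of 50 CPM, and leaving out each mouse. The test was run on simulated data, where a pass was required only at a spread far smaller than that of these data. The required pass does not show how well the test performs at the spread of these data. A run at that spread was also made, but no pass was required of it and its counts are not given here.

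The 10 genes, the gene lists and the tests were chosen with earlier results of these data known. Named genes are the 10, Adipoq, Lpl and Tuft1, up to 3 genes with the smallest p per list, and the 5 genes nearest to Plin1 and to Plin2 in pattern. Not all of these are printed, and others are marked. Aqp7, Cidea and Elovl3 stand in more than 1 list.

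Gene coordinates are from the raw table (mm39). Promoter sequences and their coordinates are from RefSeq on GRCm38.p6, and the builds were not mixed. Exons of Lipe, Mgll, Abhd5 and Adrb3 overlap genes on the other strand that held 91, 52, 0 and 0 counts.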

Additional observations from a re-analysis of the deposited data

Results flagged for a closer look

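Levels and ratios of the 10 genes made 29 sets of 4 wild-type values, and in 3 sets a single mouse was distant from the rest. Chance gives about 1 in 20, or 1.45 sets. The sets share mice and genes, so the 3 cannot be gauged against this figure. On the log2 CPM scale Plin1 had 7.63 in wild-type mouse 7 and 8.47 to 8.60 in the remaining wild-type mice. The log2 ratio of Plin2 to the fat cell markers was -0.37 in the same mouse, against -1.22 to -1.12 in the others. Pnpla2 transcripts were 8.35 times as many as Abhd5 transcripts in wild-type mouse 6, against 14.8 to 15.5 times in the others.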

How the results depend on the processing

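Over the 10 genes and their 13 alternatives (12 for Abhd5 and Adrb3, which lay below a mean of 50 CPM), 115 values kept their direction and their side of the threshold, 12 became called in the same direction and 1 reversed: Plin2 at -0.068 without knockout mouse 2 (up to 0.56 without knockout mouse 3). The number of the 10 called, 0 with edgeR (6 at an unadjusted p below 0.05), was 5 with DESeq2, 3 without a filter on low counts, 2 with limma-voom and 2 at a mean of at least 50 CPM, and 0 with each mouse left out. All genes called, 3 with edgeR, numbered 123 with DESeq2, 22 with limma-voom, 76 without a filter and 25 at a mean of at least 50 CPM, and 0 to 1 with 1 mouse left out (432 to 847 at an unadjusted p below 0.05). They numbered 0 without wild-type mouse 5, 6 or 7 and 1 without any other mouse. The cause was not tested. The median log2 fold change of the 10 lay between -1.09, when wild-type mouse 7 was left out, and -0.76, when wild-type mouse 8 was left out, over all alternatives. The fold change of Plin4 ran from -0.85 without knockout mouse 2 to -0.089 without wild-type mouse 6. No scaling moved the median of all genes by as much as 0.1. No paired analysis was made because the labels used here give no pairing of knockout with wild-type mice. Depth limits Abhd5 and Adrb3 most, with 127 to 751 counts per library.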

Other observations

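Of 8 brown fat markers, 6 were tested and 5 had a log2 fold change above 0. With edgeR 0 were called (2 higher and 1 lower at an unadjusted p below 0.05), as with DESeq2 and limma-voom, while edgeR without a filter on low counts called Elovl3 higher. Among them, Elovl3, a fatty acid elongase also made in sebocytes, had a log2 fold change of 1.92 (SE 0.69), and Dio2, which activates thyroid hormone, one of -1.51 (SE 0.66). All 12 endothelial markers were tested and 10 lay below 0, with a median of -0.70 that was -0.24 without knockout mouse 4 and -0.22 without wild-type mouse 6. With edgeR 0 were called (3 lower at an unadjusted p below 0.05), as with DESeq2 and limma-voom. Pecam1, an endothelial adhesion gene, was at 41.0, 33.8 and 17.8 CPM in knockout mice 2, 3 and 4, against 79.1, 74.7, 42.7 and 62.1 CPM in wild-type mice 5, 6, 7 and 8. Its log2 fold change was -1.07 (SE 0.43, edgeR adjusted p = 0.9997). Tek and Cldn5, the others at an unadjusted p below 0.05, had 0 counts in the knockout mice and wild-type means of 6.86 and 3.44 CPM. The 2 endothelial markers above 0 were Cdh5 (0.013) and Vwf (1.52), named after their values were seen. Krt79, of the sebaceous duct, was at 298, 289.7 and 218 CPM in knockout mice 2, 3 and 4, against 167, 96.9, 107 and 110.2 CPM in wild-type mice 5, 6, 7 and 8 (log2 fold change 1.16, SE 0.26, edgeR adjusted p = 0.331).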
